A study of Mus musculus with 8 samples.

Results

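The difference between Dnmt1 genotypes that is shared by both ages was measured as the difference between all 4 knockout (KO) and all 4 wild-type (WT) libraries, with age as a covariate. A gene was a member of this comparison when it was called in that additive model and its KO-to-WT difference had the same direction at 6 and at 18 months. Of 18205 genes tested, 566 were called and 564 of these met both conditions, 125 higher and 439 lower in KO. The share of all tested genes called higher was 0.692% and the share called lower was 2.42%, so the members are nearly the whole of the called set and direction at both ages removed only 2 genes. Calls are from quasi-likelihood fits in edgeR, with p-values adjusted over all tested genes by the Benjamini-Hochberg method and a threshold of 0.05.

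RNA came from tdTomato-positive cells sorted by flow cytometry from the cerebral cortex of mice on a C57BL/6 background. All groups carried PV-Cre, which expresses the Cre recombinase from the parvalbumin locus, and the tdTomato reporter. The WT groups had an intact Dnmt1, and the KO groups had Dnmt1 loxP2, an allele with exons 4 and 5 flanked by loxP sites, from a B6;129Sv stock. Each of the 4 groups (WT at 6 months, KO at 6 months, WT at 18 months and KO at 18 months) had 2 libraries, which the series describes as technical replicates of pooled cells, with 6 mice of each genotype named. The p-values of the additive model therefore measure the spread between libraries and between the 4 pools. Those of the separate tests at each age, and of the change of the genotype difference with age, measure only the spread between the 2 libraries of a pool. Neither kind measures the spread between animals. A lower level of a transcript in such pools cannot be told apart from fewer cells of the type that makes it.

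Dnmt1 encodes the maintenance DNA methyltransferase, which copies CpG methylation onto newly made DNA strands and is also expressed in neurons that no longer divide. Parvalbumin interneurons are fast-spiking inhibitory cells that make GABA with the enzymes encoded by Gad1 and Gad2. Their firing depends on Kv3 potassium channels and on the scaffold of the axon initial segment, and their cell bodies are wrapped in a perineuronal net that contains the proteoglycan aggrecan.

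The labelled cell type was checked first. Pvalb itself had 6 reads over the 8 libraries, with at most 2 in any library, and was too low to test. The 18 tested markers of mature oligodendrocytes summed to 15200 CPM (read counts scaled to library size) in WT at 6 months and to 44690 to 44910 in WT at 18 months. The 20 astrocyte markers summed to 16970 to 17080 and to 6341 to 6436 in the same groups, and the 11 GABA neuron markers to 1278 to 1311 and to 599 to 645. The libraries thus held abundant glial transcripts and almost no parvalbumin transcript in both genotypes, and the members are described below as genes of sorted cortical cells, not of parvalbumin cells. Library totals were 6008175 to 13551218 counts.

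The targeted gene was read next. Dnmt1 (chromosome 9, 20907209 to 20959888, mm10) had 97.9 and 104 CPM in WT and 77.2 and 75.2 in KO at 6 months. The 18-month values were 80.8 and 81.1 CPM in WT and 74.3 and 76.6 in KO. All 4 KO libraries lay below all 4 WT libraries, by 1.32-fold at 6 months and 1.07-fold at 18 months. Over both ages its log2 difference was -0.25 ± 0.09 (SE; adjusted p = 0.195 in edgeR), so Dnmt1 was not a member. The labels describe the deletion as giving a null allele through a frame shift, which need not remove reads from the other exons, and gene counts do not resolve exons. Dnmt3a, a de novo methyltransferase, had an additive log2 fold change of -0.06 (adjusted p = 0.777).

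The start regions of 3 members are shown: Prl, which had reads only in KO, Atp2a3, the largest change after Prl among higher genes that met the naming rule of at least 10 CPM, and Sptbn4, a lower member with one of the smallest p-values. Each window runs from 250 bases before to 50 bases after the RefSeq start, on GRCm38.p6, the assembly of mm10, 5′ to 3′ on the strand of the gene. Capitals mark CpG, the dinucleotide that DNA methyltransferases act on. In the Prl window, capitals also mark the 2 matches of ATGNATA, read on either strand, the core of the element recognised by the pituitary factor POU1F1. Prl is at chr13:27057320-27057619 (+), Atp2a3 at chr11:72960919-72961218 (+) and Sptbn4 at chr7:27446540-27446839 (-).
Prl: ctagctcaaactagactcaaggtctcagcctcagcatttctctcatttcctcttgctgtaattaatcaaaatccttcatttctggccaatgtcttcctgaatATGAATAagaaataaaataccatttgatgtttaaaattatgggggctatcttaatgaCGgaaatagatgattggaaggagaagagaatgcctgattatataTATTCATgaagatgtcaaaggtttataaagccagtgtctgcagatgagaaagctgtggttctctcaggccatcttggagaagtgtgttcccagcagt
Atp2a3: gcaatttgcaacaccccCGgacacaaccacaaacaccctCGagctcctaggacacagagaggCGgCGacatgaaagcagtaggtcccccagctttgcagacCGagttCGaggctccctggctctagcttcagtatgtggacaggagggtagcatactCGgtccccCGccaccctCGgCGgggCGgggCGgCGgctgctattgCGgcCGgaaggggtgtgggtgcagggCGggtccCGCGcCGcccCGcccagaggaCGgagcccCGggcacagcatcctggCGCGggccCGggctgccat
Sptbn4: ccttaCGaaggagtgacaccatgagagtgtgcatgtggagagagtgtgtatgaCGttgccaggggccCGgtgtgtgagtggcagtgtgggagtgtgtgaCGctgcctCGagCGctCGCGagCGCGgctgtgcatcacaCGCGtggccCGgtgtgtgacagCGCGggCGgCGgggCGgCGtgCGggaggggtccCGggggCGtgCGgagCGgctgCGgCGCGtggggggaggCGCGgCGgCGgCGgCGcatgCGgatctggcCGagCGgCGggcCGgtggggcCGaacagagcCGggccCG

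The Prl window held 1 CpG, a number (1 or none) found in 14.7% of 27025 promoter windows, where the median was 7. The Atp2a3 and Sptbn4 windows held 25 and 41 CpG. ATGNATA occurred in 9.05% of all windows and 2 or more times in 1.57%, and it did not occur in the other 2 windows. A match of these letters is a description of the sequence and not a measured binding site, and DNA methylation was not analysed here.

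Most of the response to genotype was not shared by the ages. At 6 months 19.2% of tested genes were called higher and 19.6% lower in KO, and at 18 months 14.7% and 17.4%. Of 3390 genes called at both ages, 791 moved in the same direction, 293 higher (1.61% of tested genes) and 498 lower (2.74%), while 2599 (14.3%) moved in opposite directions. The 791 were 11.2% of the calls at 6 months and 13.5% of those at 18 months. Over all tested genes the direction was the same at both ages for 7795 (42.8%). The correlation across genes of the log2 fold changes at the ages was r = -0.0629, and -0.195 over the 10123 genes with a mean of at least 10 CPM; genes are not independent replicates, and this is a description of 4 pools. The size of the genotype difference differed between the ages, by the interaction term, for 7126 genes (39.1%).

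**Figure D1:**
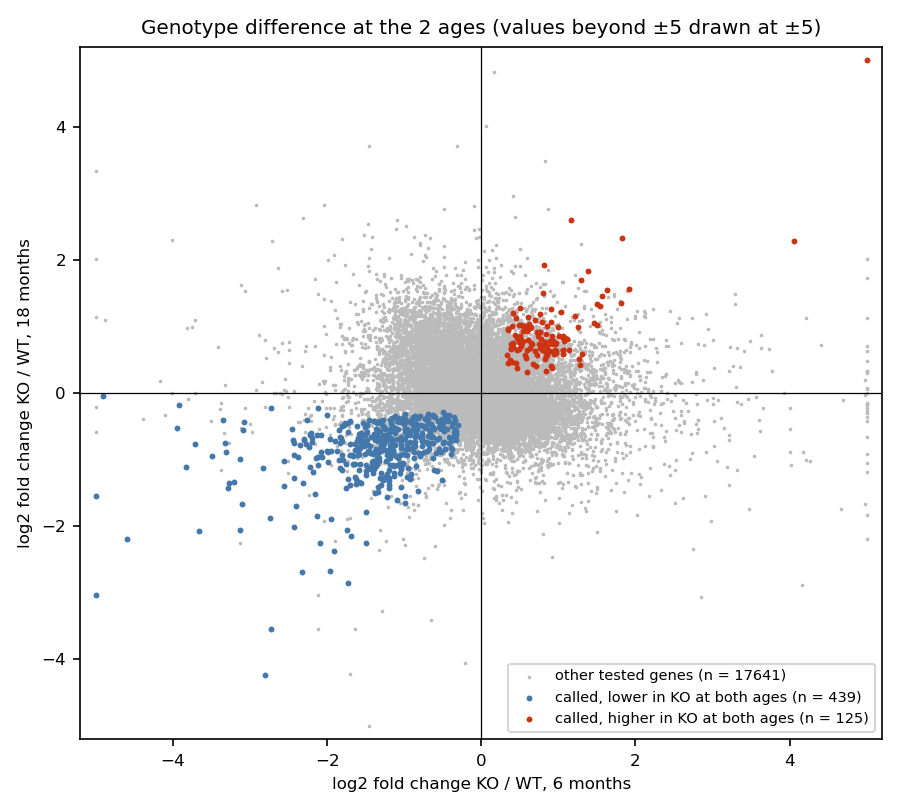
Log2 fold change of KO over WT at 6 months (horizontal axis) and 18 months (vertical axis) for each of 18205 tested genes, with the 125 higher members in red and the 439 lower members in blue. The members lie in 2 corners by the rule that chose them, and the grey cloud of other genes fills the opposite corners too.

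The 564 members were larger in number and in size on the lower side. The median additive log2 fold change was 0.77 for the higher members, a 1.71-fold difference, and -1.05 for the lower members, a 2.07-fold difference, against 0.01 for all tested genes. These sizes describe the genes the rule selected. The higher members had medians of 0.79 at 6 months and 0.78 at 18 months, and the lower members had medians of -1.22 and -0.75. At least 2-fold differences were found for 20 higher and 240 lower members. Of the higher members 117 were also called at each age alone, and of the lower members 342. Both KO libraries lay beyond both WT libraries at each age for all 125 higher members (7.56% of tested genes did so) and for 421 lower members (9.05%). All 4 KO libraries lay above all 4 WT libraries for 54 higher members (1.86% of tested genes did so) and below them for 79 lower members (2.36% of tested genes did so). The rule used the same libraries and favours genes that separate, so these counts describe the selection and are no further support. The direction condition turned on small values for a few genes. Among called genes just inside it, Dnah11 had log2 fold changes of -4.91 and -0.04 at 6 and 18 months, and just outside it Crhr1 had -2.54 and 0.03.

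The rule requires KO below WT at both ages, so for a lower member the highest group mean is nearly always a WT group and the lowest a KO group, and only the age within each genotype is free. The WT 6-month group was the highest of the 4 for 434 of the 439 lower members (98.9%), against 77.4% of all 3935 genes with lower values in KO at both ages, called or not. The KO 18-month group was the lowest for 428 (97.5%), against 77.2%. In 326 of them the WT mean at 18 months was already below the KO mean at 6 months. Most lower members were thus lower in old than in young WT cells and lowest in old KO cells. For the higher members the highest group was split between the ages: KO at 6 months for 67 and KO at 18 months for 58. Their lowest group was not counted. The age and genotype differences share libraries, so these orders are descriptions.

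Prl, which encodes the pituitary hormone prolactin, had reads in KO libraries only. There were 0 reads in each of the 4 WT libraries. KO libraries had 1910 and 1843 reads at 6 months and 699 and 680 at 18 months. Read against a floor of 3 reads in a WT group, Prl was at least 894-fold higher in KO at 6 months and at least 390-fold higher at 18 months (edgeR adjusted p = 9.3e-05 in the additive model). No WT library overlapped a KO library, and the KO level was 219 and 220 CPM at 6 months and 53.4 and 58.7 CPM at 18 months. Pomc, which encodes the precursor of corticotropin and melanotropins, was also higher. It had 1.15 and 1.30 CPM in WT and 3.78 and 5.01 in KO at 6 months. In the older mice it had 0.63 and 0.77 CPM in WT and 3.66 and 3.62 in KO. All KO libraries lay above all WT libraries, with a log2 difference over both ages of 2.09 ± 0.24 (SE; adjusted p = 0.00445 in edgeR).

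Most other listed pituitary genes were too low to test. Of 16 listed pituitary genes, 5 were tested, and 2 were higher and 1 lower in KO. Gh, the growth hormone gene, had 1 read in all libraries, and the gonadotropin subunit genes Cga, Lhb and Fshb had 0. Pou1f1, the factor that drives Prl in the pituitary, had 0 and 0 reads in WT and 6 and 7 in KO at 6 months, and 0 and 2 in WT and 3 and 5 in KO at 18 months, and was too low to test. Chga, which encodes the secretory granule protein chromogranin A, was lower in KO, with a log2 fold change of -1.04 (edgeR adjusted p = 0.0282). It was called at 6 months but not at 18 months (edgeR adjusted p = 0.0686). Prlr, the prolactin receptor gene, was not a member. Its values were 0.165 and 0.325 CPM in WT and 2.75 and 1.91 in KO at 6 months, and 6.52 and 5.62 in WT and 3.05 and 2.50 in KO at 18 months. Prlr was therefore higher in KO at the younger age and lower at the older age. None of the 11 tested genes of prolactin receptor signalling was a member, 4 had an unadjusted p under 0.05, all lower in KO, and DESeq2 called 1 and limma voom 0. Whether the Prl reads came from the sorted cells was not tested.

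**Figure D2:**
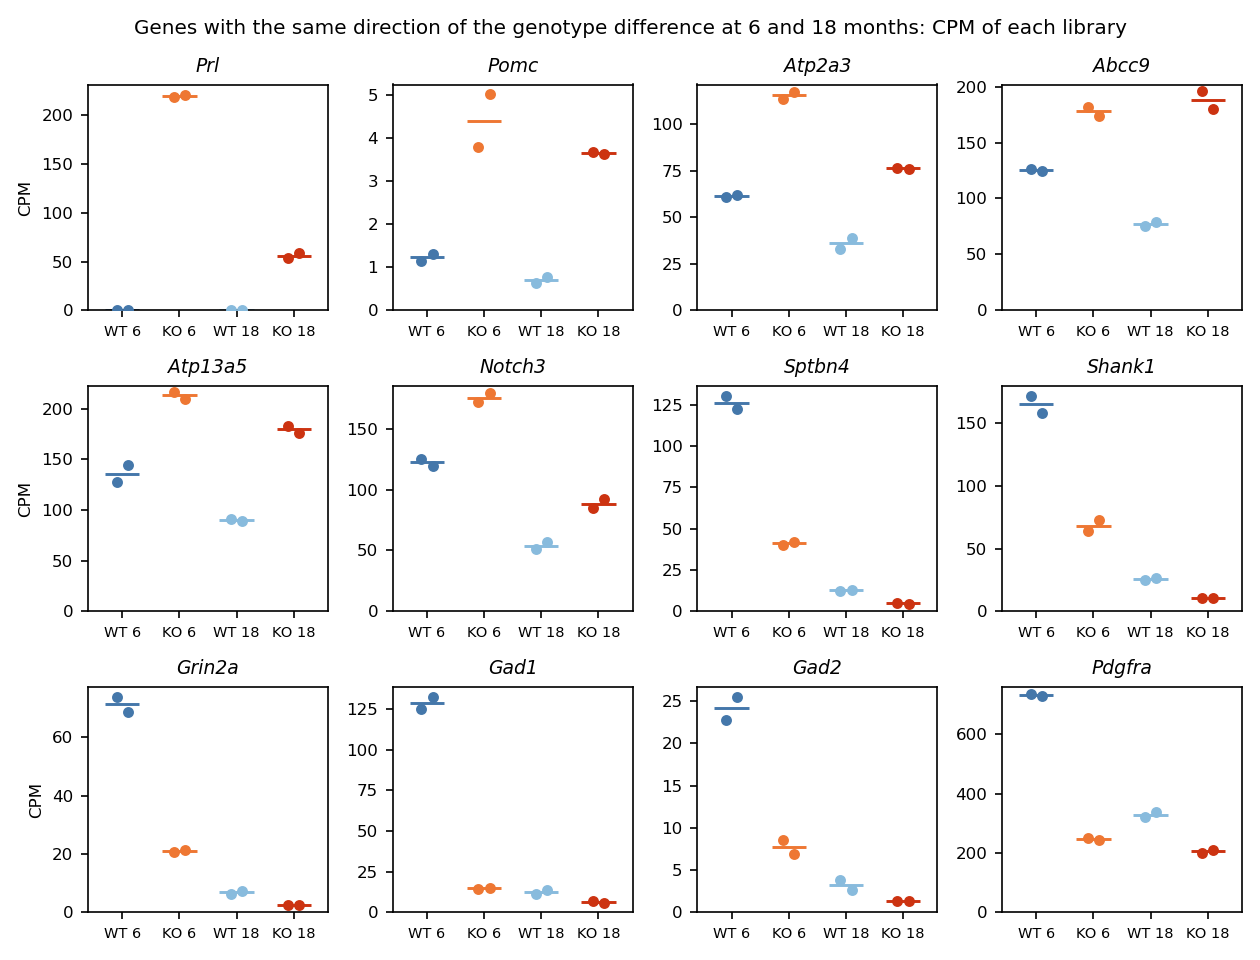
CPM of each library (points) and the mean of each group (bars) for 12 members, with the groups WT and KO at 6 and 18 months on the horizontal axis. Prl is at 0 in WT, the mural cell genes are higher in KO at each age, and the neuronal genes are highest in WT at 6 months and lowest in KO at 18 months.

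Genes of pericytes and vascular smooth muscle, the contractile mural cells of small vessels, were the marker group that was higher in KO at both ages. Of 15 tested, 6 were members, all higher (Pdgfrb, Abcc9, Anpep, Notch3, Myh11 and Atp13a5), 8 were called higher at each age alone, and 13 had a higher value in KO at both ages. Among all tested genes 0.692% were called higher in the additive model and 1.61% higher at each age alone. The list's median additive log2 fold change was 0.62, against 0.01 for all tested genes. Abcc9, the regulatory subunit of the ATP-sensitive potassium channel of pericytes, had 127 and 125 CPM in WT and 182 and 174 in KO at 6 months. Values in the older mice were 75.5 and 78.7 CPM in WT and 196 and 180 in KO. The genotypes did not overlap, with an additive log2 fold change of 0.89 ± 0.16 (SE; adjusted p = 0.0225). Notch3, the Notch receptor that maintains mural cells, had 125 and 120 CPM in WT and 172 and 179 in KO at 6 months. It had 50.9 and 56.7 CPM in WT and 84.5 and 92.0 in KO at 18 months. Old KO libraries lay below young WT libraries for Notch3, so the groups separated within each age only, with an additive log2 fold change of 0.62 (adjusted p = 0.0107). Atp13a5, a cation-transporting ATPase found in brain pericytes, rose 1.57-fold at 6 months and 1.99-fold at 18 months, and Myh11, the smooth muscle myosin heavy chain, rose 1.29-fold and 1.41-fold. The mural list summed to 2613 to 2662 CPM in WT and 3292 to 3342 in KO at 6 months, and to 1491 to 1524 and 2427 to 2475 at 18 months.

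Several higher members outside the mural list were named for their size or small p, and no list was tested for them. Atp2a3, the calcium pump SERCA3 of the endoplasmic reticulum, had 61.1 and 61.7 CPM in WT and 114 and 117 in KO at 6 months. Libraries from the older mice had 33.2 and 39.0 CPM in WT and 76.5 and 76.0 in KO. All 4 KO libraries lay above all 4 WT libraries, by 1.88-fold and 2.09-fold (additive log2 0.99 ± 0.09 (SE), adjusted p = 0.00115). Tbx18, a transcription factor of mural cells, rose 1.95-fold in the additive model, S1pr3, a receptor for sphingosine 1-phosphate, 1.87-fold, and Carmn, a long non-coding RNA of smooth muscle, 1.82-fold. Nid1, which encodes the basement membrane protein nidogen-1, was named for its small p. It rose from 35.2 and 35.7 CPM in WT to 58.5 and 64.0 in KO at 6 months, and from 27.8 and 25.5 to 41.4 and 41.6 at 18 months (adjusted p = 0.00501). Slc6a20a, a proline transporter, Slc22a8, an organic anion transporter, Pald1 and Gjc1, the gap junction protein connexin 45, rose between 1.76-fold and 1.83-fold. Of 23 basement membrane genes, a list added after values were seen, 3 were higher members (Lamb1, Lamc3 and Nid1) and 2 were lower (Col4a2 and Col18a1). Of 18 endothelial genes 1 was higher, with a list median of -0.06, and of 8 fibroblast genes 1 was higher. Of 17 microglial genes none was a member (edgeR), with 1 at an unadjusted additive p under 0.05 and 0 by DESeq2 or limma voom. Microglial genes did differ within the ages, with median log2 fold changes of 0.33 at 6 months and -1.53 at 18 months. Their interaction was called for 15 of 17, against 39.1% of all tested genes. Their summed CPM was 156 to 169 in WT and 208 to 212 in KO at 6 months. At 18 months it was 209 to 225 in WT and 91.4 to 94.3 in KO.

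Among inhibitory neuron genes, 6 of 11 GABA neuron genes and 5 of 6 somatostatin and Nos1 interneuron genes were lower members, but few were called at each age alone. Gad1, the larger isoform of glutamate decarboxylase, had 125 and 132 CPM in WT and 14.4 and 15.0 in KO at 6 months. The older groups had 11.4 and 13.9 CPM in WT and 6.87 and 6.04 in KO. WT libraries at 18 months lay below KO libraries at 6 months, so the genotypes separated within each age but not across them, and the additive log2 fold change was -2.15 ± 0.40 (SE; adjusted p = 0.0256). Gad2 had 22.7 and 25.5 CPM in WT and 8.59 and 6.92 in KO at 6 months, and 3.89 and 2.62 in WT and 1.30 and 1.29 in KO at 18 months (adjusted p = 0.00513). Of 11 GABA neuron genes 6 were lower members (Gad1, Gad2, Dlx1, Dlx6, Dlx6os1 and Sp9), with a list median of -1.51. Among all tested genes 2.42% were called lower in the additive model. Only 2 of the 11 were called lower at each age alone, 2 were called in opposite directions, and 8 had lower values in KO at both ages. Their summed CPM was nevertheless higher in KO than in WT at 18 months (840 to 865 against 599 to 645), so the sum and the gene counts differ in direction at that age. Of the 6 somatostatin and Nos1 interneuron genes 1 was called lower at each age alone. Sst, the somatostatin gene itself, had 12 reads over the 8 libraries, with at most 5 in any library, and was too low to test. The 6 genes summed to only 8.3 to 10.9 CPM in WT and 4.8 to 6.1 in KO at 18 months. Nos1, a lower member, had 27.0 and 26.0 CPM in WT and 3.55 and 4.42 in KO at 6 months, and was near 1 CPM or below in most libraries at 18 months. Of 13 parvalbumin genes, 3 of which were called lower, 1 higher and 2 in opposite directions at each age alone, 2 were lower members, Cplx1 and the Kv3.1 channel gene Kcnc1, and 1 was higher, Cox6a2, a cytochrome c oxidase subunit, at 0.49 and 0.65 CPM in WT and 2.29 and 1.31 in KO at 6 months. The 13 parvalbumin genes summed to 506 to 551 CPM in WT and 541 to 550 in KO at 6 months. At 18 months they summed to 591 to 624 CPM in WT and 569 to 571 in KO. Of 12 genes of interneurons of caudal origin and of 15 excitatory neuron genes 1 each was a lower member.

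Of the synaptic receptor genes 22 had lower and 1 had higher values in KO at both ages, and the others changed direction with age. Of 36 glutamate and GABA receptor genes 13 were members and all 13 were lower, as were 439 of all 564 members. The list median was -0.56, and 2.42% of all tested genes were called lower in the additive model. Grin2a, a subunit of the NMDA receptor, had 73.7 and 68.5 CPM in WT and 20.8 and 21.2 in KO at 6 months. In the 18-month libraries it had 6.39 and 7.39 CPM in WT and 2.52 and 2.67 in KO. The groups separated at each age, with an additive log2 fold change of -1.62 ± 0.11 (SE; adjusted p = 0.000672). Grin1, the obligatory NMDA receptor subunit, fell 4.73-fold at 6 months and 1.76-fold at 18 months, and Grik3 and Grm5, a kainate and a metabotropic glutamate receptor, fell 2.45-fold and 1.73-fold in the additive model. In the same list 10 genes were called in opposite directions at the ages, as were 14.3% of all tested genes. The list's summed CPM was lower in KO at 6 months (2599 to 2641 against 4422 to 4484) but higher at 18 months (2667 to 2669 against 2134 to 2145).

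Genes for transmitter release and for the postsynaptic density had lower members and no higher one. Of 29 synaptic vesicle release genes 10 were lower members, with a median of -0.48, and 4 were called in opposite directions at the ages. Of all tested genes 2.42% were called lower in the additive model and 14.3% in opposite directions at the ages. The summed CPM below is that of the vesicle release genes. Their summed CPM was lower in KO at 6 months (2036 to 2074 against 3202 to 3246) but slightly higher at 18 months (1629 to 1642 against 1553 to 1586). Syt1, the calcium sensor of vesicle fusion, fell 2.82-fold at 6 months and 2.12-fold at 18 months (adjusted p = 0.00115). Bsn, the active zone scaffold bassoon, had 196 and 187 CPM in WT and 89.8 and 100 in KO at 6 months, and 35.0 and 31.6 in WT and 15.8 and 16.0 in KO at 18 months. The fold was nearly the same at the ages for Bsn, 2.02 and 2.08, as it was for the fusion protein gene Snap25, 1.82 and 1.84. Shank1, a scaffold of excitatory synapses, had 172 and 158 CPM in WT and 64.0 and 72.3 in KO at 6 months. The 18-month values were 25.2 and 26.2 CPM in WT and 10.3 and 10.5 in KO. Its fold was 2.41 and 2.48, with 1 of the smallest p-values of the lower members (adjusted p = 0.000581). Of 17 postsynaptic scaffold genes 6 were lower members (Shank1, Shank2, Shank3, Dlgap2, Dlgap3 and Lrrc7), and of 22 voltage-gated calcium channel genes 9 were. In these lists, both added after values were seen, 4 and 2 genes were called in opposite directions.

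Other lower members have roles in excitability and in the matrix around neurons. Sptbn4, the spectrin of the axon initial segment, had 130 and 122 CPM in WT and 40.1 and 42.1 in KO at 6 months. In the older mice it had 12.3 and 13.2 CPM in WT and 5.12 and 4.75 in KO. The genotypes separated at each age (additive log2 -1.51 ± 0.09 (SE), adjusted p = 0.000581). Acan, which encodes aggrecan of perineuronal nets, fell 4.54-fold at 6 months and 2.27-fold at 18 months. Camk2b, a calcium-dependent kinase subunit, Nrxn3, a presynaptic adhesion protein, and Ptpro, a receptor phosphatase, fell 3.87-fold, 4.38-fold and 4.67-fold at 6 months and 1.83-fold, 1.55-fold and 1.53-fold at 18 months. Agap2, Sez6, Basp1, Mgat5b, Emid1 and Brinp1 fell between 2.45-fold and 2.94-fold in the additive model. Of 18 potassium channel genes 3 were lower members, against 2.42% of all tested genes called lower in the additive model. Lars2, a mitochondrial leucine tRNA synthetase gene, had the largest fall among lower members that met the naming rule of at least 10 CPM, with 1333 and 1466 CPM in WT and 315 and 202 in KO at 6 months, and 86.1 and 226 in WT and 29.1 and 51.2 in KO at 18 months. Gm26917, a locus whose reads are ribosomal-RNA-like, took 9.29% to 9.97% of counts in WT and 4.19% to 4.98% in KO at 6 months, and 2.70% to 3.06% and 1.67% to 1.82% at 18 months. Its share had the same order of the 4 groups as Lars2. In 326 of the 439 lower members too, the WT mean at 18 months lay below the KO mean at 6 months. Within each 6-month group the library with the higher Gm26917 share had the lower Lars2 value, and within each 18-month group the higher. The part of Gm26917 in the Lars2 values was not tested. Cytl1, a secreted cytokine-like protein gene chosen after its values were seen, had a total of 177 reads in WT and 1 in KO at 6 months, but 2 and 0 at 18 months, so its membership rests on the younger age.

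Oligodendrocyte precursors gave the other lower marker group. Of 12 tested genes 9 were lower members and 9 were called lower at each age alone, with a median of -0.98, while 2 were called in opposite directions. Among all tested genes 2.42% were called lower in the additive model, 2.74% lower at each age alone and 14.3% in opposite directions. Pdgfra, the platelet-derived growth factor receptor that defines these cells, had 735 and 731 CPM in WT and 249 and 245 in KO at 6 months. Values in the older mice were 320 and 337 CPM in WT and 201 and 209 in KO. KO libraries at both ages lay below all WT libraries, with an additive log2 fold change of -1.12 ± 0.18 (SE; adjusted p = 0.0144). Tnr, the matrix protein tenascin-R, and Matn4, matrilin-4, fell 2.03-fold and 2.09-fold in the additive model. Of 10 genes of committed precursors 2 were lower members, the receptor gene Gpr17 and the sialidase gene Neu4, and 4 were called in opposite directions at the ages. Gpr17 had 534 and 528 CPM in WT and 171 and 179 in KO at 6 months, and 186 and 183 in WT and 98.6 and 103 in KO at 18 months. The precursor list summed to 4414 to 4415 CPM in WT and 1872 to 1933 in KO at 6 months, and to 1883 to 1936 and 1553 to 1569 at 18 months.

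**Figure D3:**
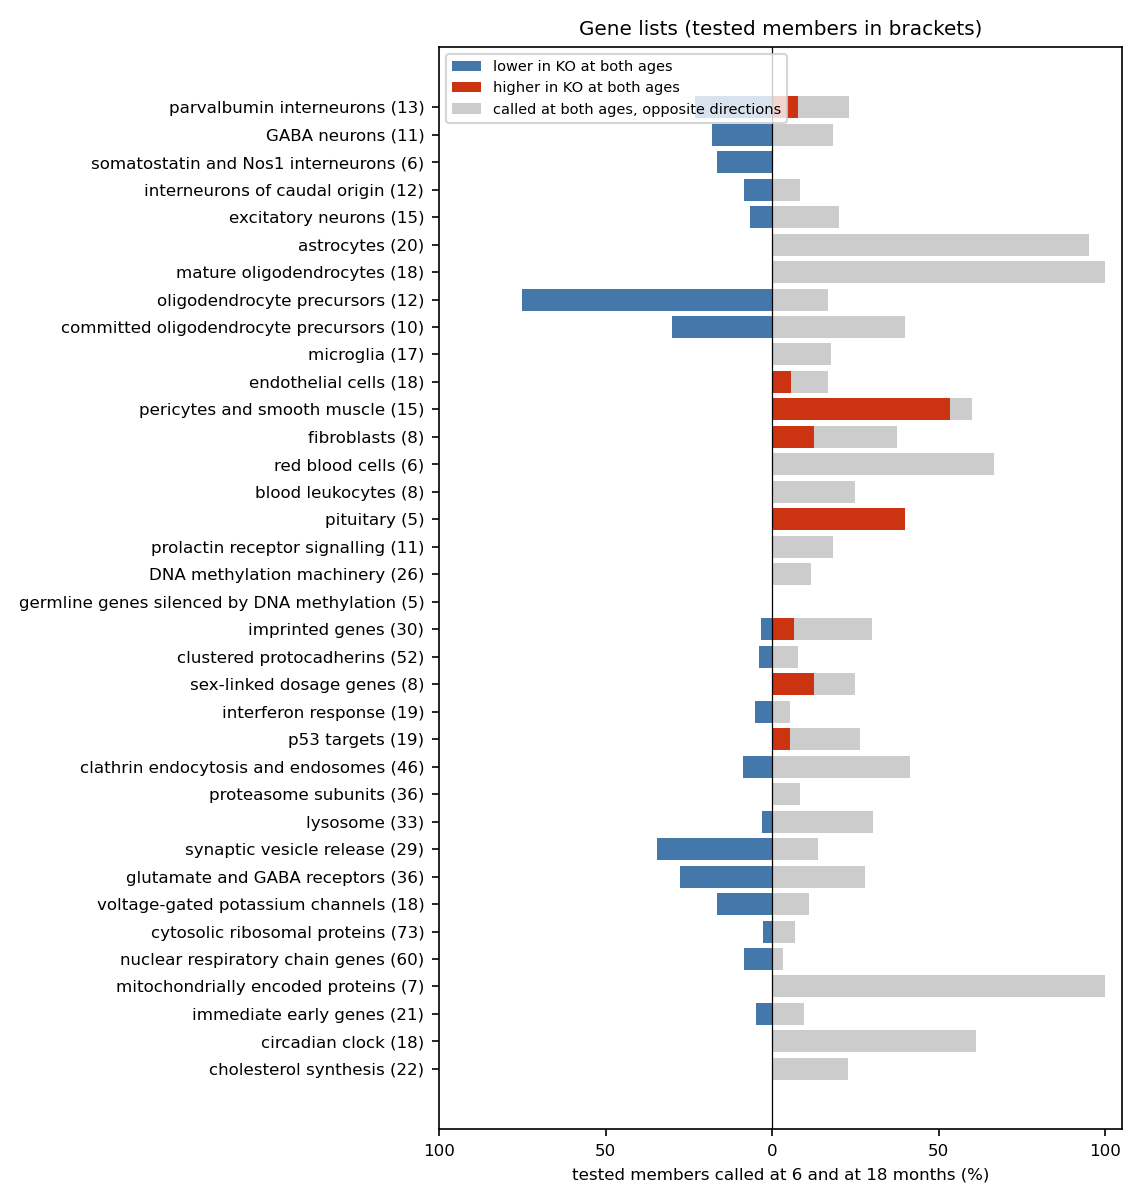
Share of the tested genes of each list that was called at both ages: lower in KO to the left in blue, higher to the right in red, and in opposite directions in grey. Oligodendrocyte precursors stand out to the left with 9 of 12 and pericytes and smooth muscle to the right with 8 of 15, while astrocyte, mature oligodendrocyte and mitochondrial genes are almost wholly grey.

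Mature oligodendrocyte and astrocyte genes were the contrast to these groups. All 18 tested genes of mature oligodendrocytes and 19 of 20 astrocyte genes were called at both ages in opposite directions, as were 14.3% of all tested genes. None was a member by edgeR, DESeq2 or limma voom, nor at an unadjusted p under 0.05. The rule leaves out genes with opposite directions, so this absence adds nothing to the directions themselves. Mobp, a myelin protein gene, rose 3.31-fold at 6 months and fell 1.45-fold at 18 months. Slc1a2, the astrocytic glutamate transporter gene, fell 1.45-fold at 6 months and rose 2.18-fold at 18 months. The 7 tested mitochondrially encoded genes and 11 of 18 circadian clock genes also had opposite directions. The summed CPM of mature oligodendrocyte genes was 15200 in WT and 33250 to 34220 in KO at 6 months and 44690 to 44910 and 30490 to 30970 at 18 months, higher in KO at the younger age and lower at the older age. Its part in the lower members was not tested. Of 4 red blood cell genes called at both ages, all 4 had opposite directions, as had 2599 of all 3390 genes called at both ages.

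**Figure D4:**
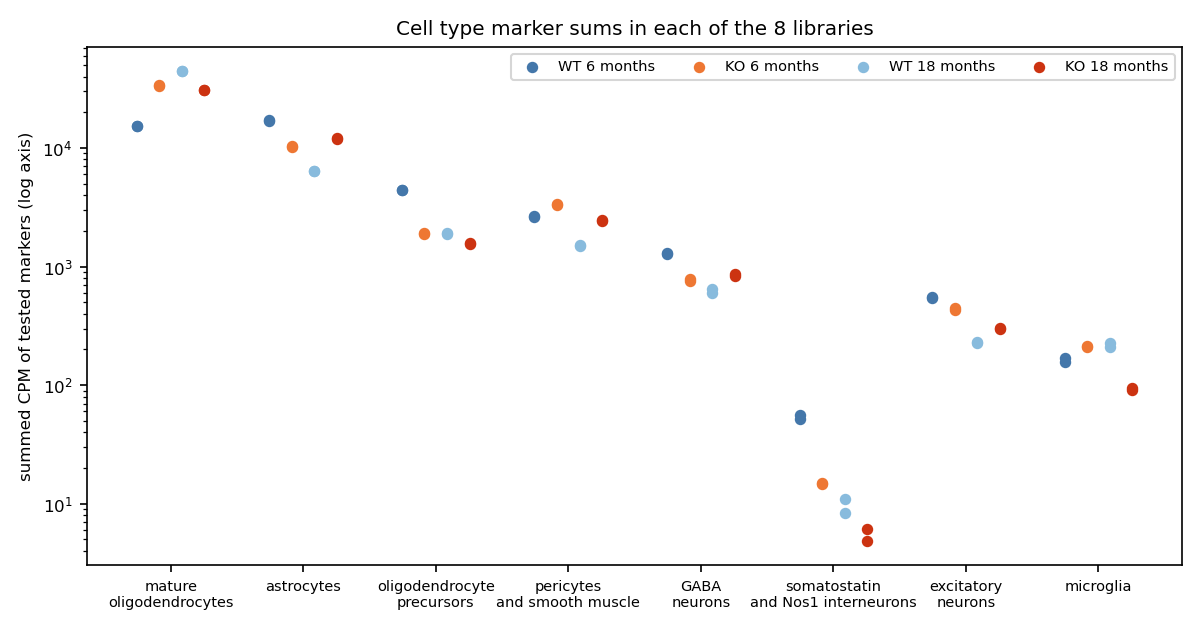
Summed CPM of the tested markers of 8 cell types in each of the 8 libraries, on a log axis, with 2 points per group. Precursor and somatostatin and Nos1 marker sums are lower in KO at each age and mural sums higher, whereas oligodendrocyte and astrocyte sums change direction between the ages. The somatostatin and Nos1 sum does not include Sst, which was too low to test.

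Members were 3.10% of all tested genes, and the shares in the lists chosen for DNA methylation were too small in number to be told from it. None of 26 tested writers, readers and erasers was a member, with 3 at an unadjusted p under 0.05 in edgeR (1 higher and 2 lower) and 0 by DESeq2 or limma voom. Of 26 germline genes that DNA methylation silences in somatic cells, 21 were at 1 CPM or below in all libraries, 5 were tested and none was called, with 1 higher and 1 lower at an unadjusted p under 0.05 and 0 by DESeq2 or limma voom. Of 30 imprinted genes 1 was higher, Grb10, an adaptor of growth factor receptors (adjusted p = 0.0376), and 1 was lower, the maternally expressed RNA Meg3. Meg3 had 57.0 and 62.7 CPM in WT and 24.1 and 27.0 in KO at 6 months, and 4.51 and 3.54 in WT and 1.30 and 1.98 in KO at 18 months (adjusted p = 0.00432). Of 52 clustered protocadherins, related genes whose reads the counting may have split, 1 was a lower member. At an unadjusted p under 0.05 in edgeR 11 were lower and 0 higher, and DESeq2 called 2 lower and limma voom 1. Of 46 endocytosis genes 2 were lower members and 19 had opposite directions, and of 36 proteasome genes none was a member, with 7 lower at an unadjusted p under 0.05 and 0 by DESeq2 or limma voom.

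The members also differed from the tested genes in what the rule did not use. The lower members spanned a median of 48.2 kb in the GENCODE annotation and the higher members 16.1 kb, against 17.4 kb for all tested genes. Protein-coding genes were 95.7% of the lower and 61.6% of the higher members, against 75.6% of all tested genes. A class of transcripts still to be verified by experiment, called TEC in GENCODE, made up 30 of the 125 higher members (24.0%) and 0.228% of the lower members, against 7.93% of all. Around Dnmt1, 4 of 50 tested genes within 1 Mb were members (8.0%), all lower (Icam5, Olfm2, Pde4a and Col5a3). The share was 4.65% within 5 Mb and 4.55% within 20 Mb, where 2 higher and 8 lower members lay, against 3.77% of the genes more than 20 Mb away on chromosome 9 and 3.05% on other chromosomes. These shares were not tested. The floxed allele came from a B6;129Sv stock, so sequence of the other strain next to Dnmt1 cannot be told apart from its deletion.

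The 2 models weigh the same libraries differently. The additive model places any genotype difference that changes with age in its residual, and its common biological coefficient of variation was 0.181 against 0.0539 for the 4-group model. The mean of the genotype differences in the 4-group model called 1567 higher and 1766 lower genes with the same direction at both ages, and the replicates summed to 1 library per group called Prl alone (edgeR adjusted p = 0.00629). In that fit with 1 residual degree of freedom, 189 genes were higher and 467 lower at an unadjusted p under 0.05. Without KO replicate 1 at 6 months the higher members numbered 22 and the lower 124, and without KO replicate 2 at 6 months 31 and 119. The interaction was called for 173 of the 564 members, 18 higher and 155 of the 439 lower, against 7126 of 18205 tested genes (39.1%). For these members a shared direction came with a size that differed between the ages. The count is no trait of the members, since the additive model disfavours genes whose difference changes with age.

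**Figure D5:**
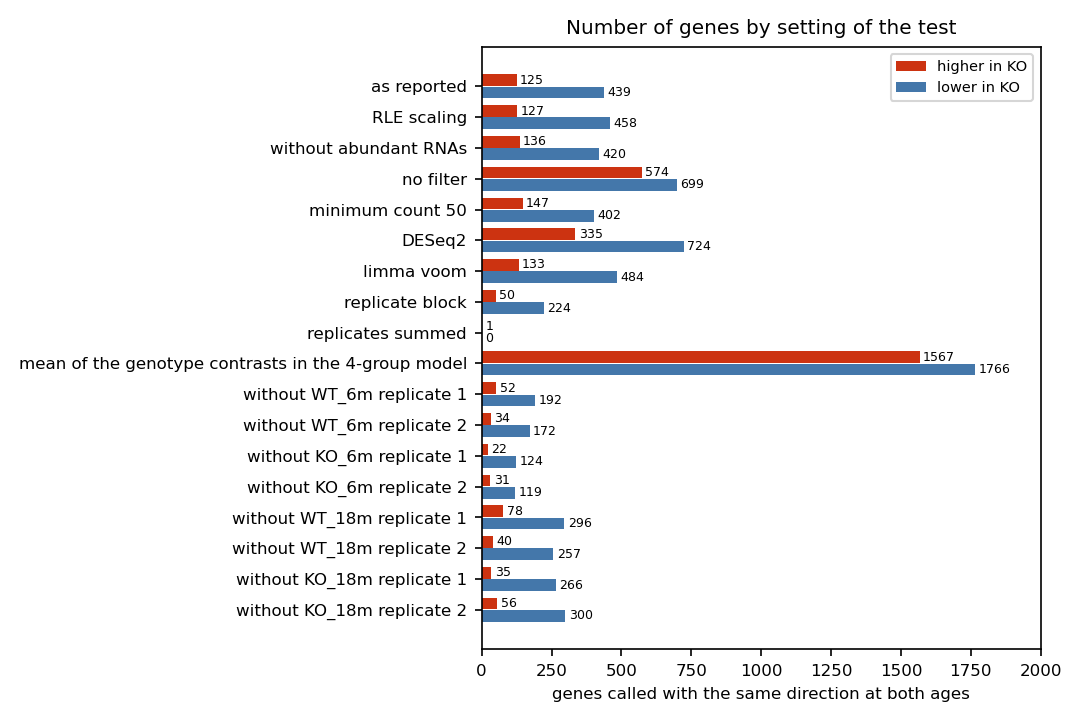
Number of genes called with the same direction at both ages, higher (red) and lower (blue) in KO, under each setting of the test, with the count beside each bar. The count is 125 and 439 as reported, 1 and 0 with replicates summed, and 1567 and 1766 with the mean of the genotype contrasts in the 4-group model.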

How the data were processed

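RNA was sequenced from 8 libraries of sorted cortical cells. The authors deposited raw read counts per gene, made on mm10 with CASAVA 1.8.2, the aligner STAR 2.5.2a and the counter featureCounts 1.5.0-p1, per the submitters' processing notes. The sources used here do not state the annotation release or the strand and multi-mapping settings. Symbols for 99.8% of 55573 IDs and positions came from GENCODE M21, and promoter sequences from RefSeq (GRCm38.p6).

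Counts were fitted with edgeR 4.0.16 in R 4.3.3 (TMM, filterByExpr with a minimum count of 10). The additive model of age and genotype had 5 residual degrees of freedom and the 4-group model, which gave each age's contrast and the interaction, 4. CPM uses TMM-scaled library sizes. A group at 0 was read as at most 3 reads, and such floors cover counting error only. The scripts were tested on simulated independent libraries with the same genotype difference at both ages. That test does not cover differences that change with age or a spread between pools.

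Named genes were the 14 largest changes in each direction among members called at both ages with non-overlapping libraries and at least 10 CPM, the 5 smallest p-values in each direction, and up to 4 genes per list, apart from 1 gene not reported here; others are given for their role and were chosen after their values were seen. Members and lists were chosen with earlier results of these data known. Alternatives were RLE scaling, removal of abundant RNAs, other filters, DESeq2 1.42.0, limma voom 3.58.1, a replicate block, summed replicates, the mean of contrasts and leaving out each library.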

Additional observations from a re-analysis of the deposited data

Results flagged for a closer look

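For these genes the genotype difference itself differed between 6 and 18 months by the interaction term of the 4-group model (edgeR adjusted p under 0.05, as for 39.1% of all tested genes). Values are the log2 fold change of KO over WT at 18 months minus that at 6 months. Lower members fell less in KO at 18 months than at 6 months, with differences of 2.14 for Gad1, 1.61 for Ptpro, 1.50 for Nrxn3, 1.43 for Grin1, 1.08 for Camk2b, 1.00 for Acan, 0.96 for Kcnc1, 0.95 for Sez6, 0.89 for Pdgfra, 0.75 for Grik3, 0.73 for Gpr17, 0.69 for Tnr, 0.69 for Neu4, 0.61 for Brinp1, 0.57 for Lrrc7 and 0.47 for Matn4. Among higher members the rise was larger at 18 months for Abcc9 (0.78), Gjc1 (0.79), S1pr3 (0.41) and Atp13a5 (0.34), and smaller for Slc6a20a (-0.75). Dnmt1 was lower in KO by less at 18 months (0.30). The difference changed sign between the ages for Slc1a2 (1.66), Mobp (-2.26) and Prlr (-4.29). All groups have 2 libraries, and no cause was tested.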

How the results depend on the processing

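Over the alternatives named below, every tested member kept its direction, but the number of calls depended on the unit of replication. Called genes in the additive model (126 higher, 440 lower) and those with the same direction at both ages (125 and 439) became 336 and 727, and 335 and 724, with DESeq2, which called 116 genes higher at both ages against 293. They became 688 and 770, and 574 and 699, without the filter on low counts. The mean of the genotype contrasts gave 2731 and 2323, of which 1567 and 1766 had the same direction, and summed replicates 1 and 0 for both. Leaving out each library in turn gave 22 to 78 higher and 119 to 301 lower calls in the additive model, 22 to 78 higher and 119 to 300 lower members, and 157 to 326 higher and 272 to 488 lower genes called at both ages. Each of the 8 libraries lowered the number of higher members by more than 1.5 times when left out: it was 52 and 34 without WT replicate 1 or 2 at 6 months, 22 and 31 without KO, 78 and 40 without WT at 18 months, and 35 and 56 without KO. RLE scaling, limma voom, a minimum count of 50 and removal of abundant RNAs stayed within 1.5 times. Prlr, not called, went from -0.06 to 1.04 with the mean of contrasts, an alternative chosen for single genes after seeing the data, as were summed replicates; with summed replicates 54 of 60 named genes were no longer called. The cause of these changes was not tested.

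A replicate block gave 50 higher and 224 lower calls, all with the same direction at both ages. Same-numbered libraries correlated from -0.01 to 0.27 in their deviations from group means, so the numbers were not read as pairs. The small read numbers of genes near 1 CPM and the 2 libraries per group limit precision.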

Other observations

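Genes of the endoplasmic reticulum chaperone and unfolded protein response list, drawn up after values were seen, had a shared direction of a smaller size and without the fall with age seen for the neuronal members. Of 24 tested, 6 were lower members, 9 were called lower at both ages and 18 had lower values in KO at both ages, with a median additive log2 fold change of -0.28 against 0.01 for all tested genes. Among all tested genes 2.42% were called lower in the additive model and 2.74% lower at both ages. Hspa5, which encodes the chaperone BiP, had 460 and 465 CPM in WT and 309 and 290 in KO at 6 months, and 415 and 447 in WT and 311 and 297 in KO at 18 months. All 4 KO libraries lay below all 4 WT libraries (additive log2 -0.57 ± 0.09 (SE), edgeR adjusted p = 0.0183). Xbp1, a transcription factor of the response, fell 1.41-fold at 6 months and 1.43-fold at 18 months, Manf, a secreted stress-response protein gene, 1.68-fold and 1.41-fold, and Pdia6, a disulfide isomerase gene, 1.43-fold and 1.31-fold. The list summed to 3091 to 3099 CPM in WT and 2646 to 2697 in KO at 6 months, and to 3494 to 3522 and 2748 to 2798 at 18 months. The interaction was called for 6 of the 24 genes, against 39.1% of all tested genes. The list was drawn up with the values known, so this lower share is no separate support for a shared direction.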
